A study of Homo sapiens with 7 samples.

Results

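Blood coagulation and complement are run largely by proteins that hepatocytes make and secrete, and 45 genes of these systems were followed in Huh-7 cells depleted of the RNA-binding protein IGF2BP1. The 45 genes were chosen by name as known members of the 2 systems, with earlier results of these data known. Each symbol was matched to 1 row of the deposited table, which lists 58174 genes. Huh-7 is a human cell line from a hepatocellular carcinoma, grown here in DMEM with 10% FBS at 37°C. Cells were transfected either with a control siRNA (siC, 3 libraries) or with pooled siRNAs that target IGF2BP1 (siIGF2BP1, called siImp1 in the sample titles, 4 libraries), and RNA was taken 72 h later. Both groups were thus transfected, and neither an untransfected culture nor a second siRNA pool was part of the comparison. Total RNA depleted of ribosomal RNA was sequenced, and levels are given as FPKM, fragments scaled to gene length and library size. The labels do not say whether libraries of a group came from separate cultures, so p-values measure the spread between these libraries, which may be technical.

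Coagulation is a cascade of proteases that are made as inactive zymogens and cut each other in turn. Tissue factor with factor VII, or the contact system with factors XI and XII, leads to factor X and thrombin, and thrombin turns fibrinogen into the fibrin clot. Serpins, protein C with its cofactor protein S, and TFPI slow the cascade, and plasmin dissolves the clot. Complement is a related set of serum proteases: C1r and C1s in the classical pathway and the MASP proteases in the lectin pathway cut C4 and C2, the products cleave C3 and C5, and C5b gathers C6 to C9 into the membrane attack complex. Factor I, C4b-binding protein, C1 inhibitor, vitronectin and clusterin hold the cascade in check. The liver is the main source of most of these proteins in plasma, and several of them belong to the acute-phase response.

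IGF2BP1 itself was at 81.9, 80.4 and 84.4 FPKM in the siC libraries and at 15.6, 15.7, 16.6 and 15.3 FPKM in the siIGF2BP1 libraries, which is 19.2% of the siC mean (log2 change −2.37, limma adjusted p = 1.16e-05). Libraries held between 12826550 and 33212205 reads on genes. Hepatocyte markers were present: all 8 genes examined were measured above the filter, and the siC mean was 1814 FPKM for albumin (ALB) and 3151 FPKM for alpha-fetoprotein (AFP). Of 12 markers of other cell types, 4 exceeded a mean of 1 FPKM. PTPRC and KDR, defining genes of leukocytes and of endothelium, were at or near 0, whereas lysozyme (LYZ) was between 147 and 162 FPKM in siC and between 113 and 129 FPKM in siIGF2BP1. CD14, a monocyte marker that hepatocytes also express, had a mean of 0.892 FPKM in siC and 2.25 FPKM in siIGF2BP1. The summed level of the 4 leukocyte markers ranged from 148 to 164 FPKM in siC and from 115 to 131 FPKM in siIGF2BP1, nearly all of it LYZ, and its part in the results was not tested. The summed level of the 4 endothelial markers ranged from 2.59 to 3.07 and from 2.86 to 3.30 FPKM, and that of the 4 fibroblast markers from 1.29 to 1.91 and from 1.92 to 2.21 FPKM. Nearly all of the endothelial sum was PECAM1, with means of 2.81 FPKM in siC and 3.01 FPKM in siIGF2BP1. COL1A2 was the largest part of the fibroblast sum, with means of 1.03 and 1.29 FPKM.

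One library stood apart. In siC replicate 3 the tested coagulation and complement genes were at a median of 76.1% of their mean in siC replicates 1 and 2, from 41.2% (F10) to 189% (F5). This library was the lowest of the siC group for 26 of the 35 tested members and the highest for 6. The deviation went with base composition: across the 35 members, the level in siC replicate 3 relative to its group was lower the higher the GC content of the transcript (Spearman rho −0.57, a description over genes that share libraries). The same held for siIGF2BP1 replicate 2 relative to its group (rho −0.69). For the log2 change between the groups, rho with GC content was 0.05, and −0.13 without siC replicate 3. Removal of a GC trend over all genes moved the count of members called higher from 5 to 9. Over all genes, the same step moved the calls from 245 to 471 higher and from 338 to 527 lower. The coefficient of variation between libraries was larger in siC than in siIGF2BP1 for 29 of the 35 members. Because of this, calls below that depend on siC replicate 3 are named as such.

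**Figure D1:**
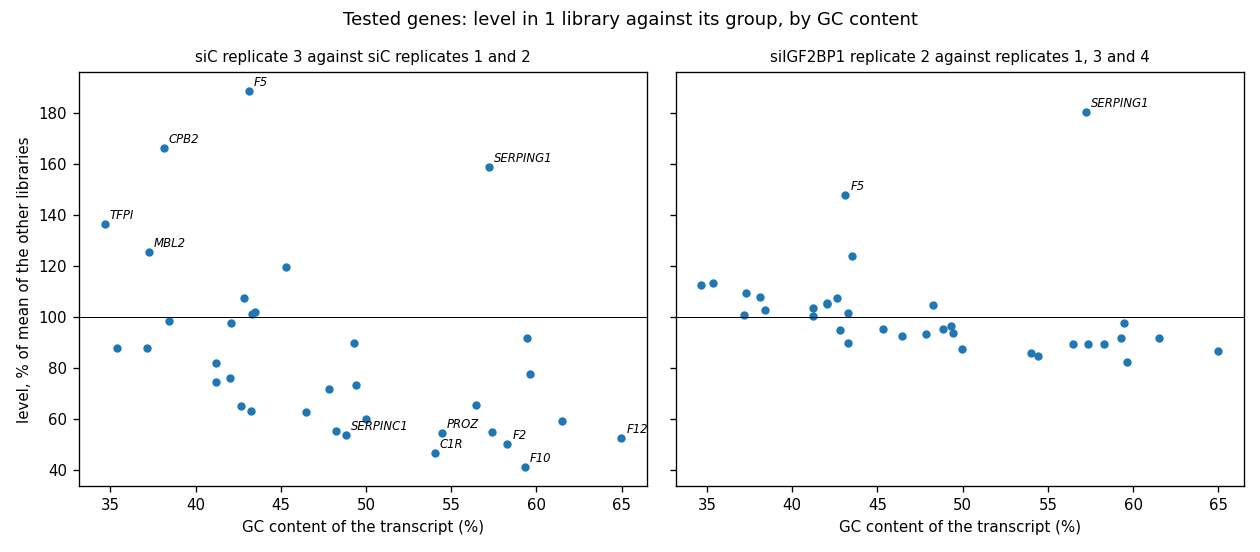
Level of each of the 35 tested members in siC replicate 3 (left) and in siIGF2BP1 replicate 2 (right), as a percent of its mean in the other libraries of the group, against the GC content of the transcript in percent, 1 point per gene. On the left the median is 76.1% and F10 lies lowest at 41.2%, and SERPING1 lies above 100% in both panels against the general slope.

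The members covered a wide range of levels. The 3 fibrinogen chains led, with siC means of 333 ± 53.5 FPKM for FGB, 238 ± 57.4 for FGA and 174 ± 12.7 for FGG (SD, n = 3), and neighbours in this order did not differ beyond their spread. VTN (vitronectin) came next at 106 ± 5.80 FPKM, below FGG by more than the spread of both. CLU, PROS1, F2 and SERPIND1 followed between 51.7 and 74.7 FPKM in an order that the spread between libraries did not resolve. In all, 8 members had a siC mean of at least 50 FPKM and 25 were under 10 FPKM. A total of 35 members passed the filter of a mean of 1 FPKM over the 7 libraries, and 2 of these, C8B and F11, passed only through their siIGF2BP1 level, since their siC means were under 1 FPKM.

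**Figure D2:**
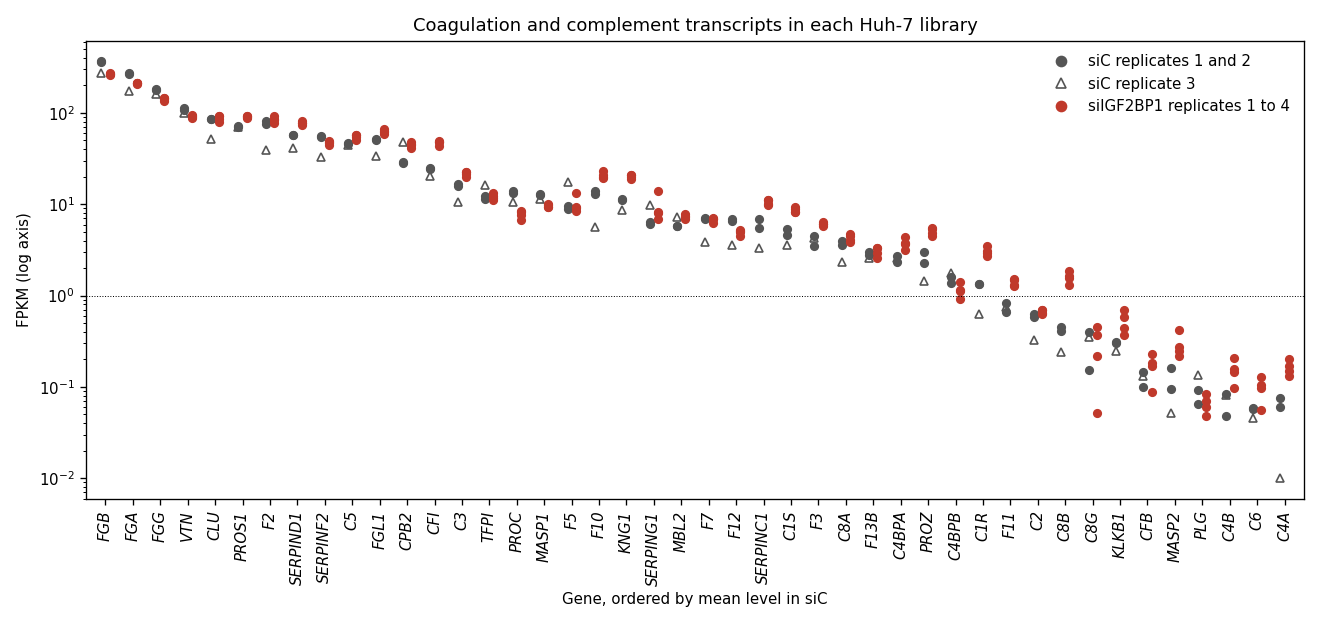
FPKM (log axis) of the 44 members with reads in the 3 siC and the 4 siIGF2BP1 libraries, 1 point per library, with siC replicate 3 as an open triangle and a dotted line at 1 FPKM. F9, at 0 throughout, is not drawn. The fibrinogen chains lie highest, at siC means from 174 to 333 FPKM, and C8B and F11 start under 1 FPKM in siC.

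Of the 35 tested members, 5 rose on IGF2BP1 depletion (CFI, KNG1, C1S, PROS1 and C8B) and 0 fell at an adjusted p of 0.01, by limma with Benjamini-Hochberg adjustment over all 14839 genes tested. Over all genes, 1.65% were called higher and 2.28% lower. C8B and F11, which passed the filter only through siIGF2BP1, are part of the 35 in these and the following counts. Of the 33 tested members with a siC mean of at least 1 FPKM, 4 were called higher. At an unadjusted p under 0.05 the members counted 16 higher and 5 lower, beside 11% and 14.8% of all genes, and at an adjusted p of 0.05 they counted 13 and 3, beside 4.74% and 6.81%. The median log2 change was 0.36 over the 35 members and −0.02 over all genes, and 25 members had a change above 0, which 47.1% of all genes had. The siC and siIGF2BP1 values did not overlap for 20 members, 16 higher and 4 lower, beside 11.9% and 15.1% of all genes, and without siC replicate 3 for 27 members, 19 higher and 8 lower, beside 20.5% and 29.3%. Without siC replicate 3, the count of calls was 13 higher and 6 lower, beside 3.59% and 6.67%, and the members' median was 0.29. Leaving out any other single library left 1 or 2 calls, CFI alone or CFI with C1S. Over all genes, 66 to 86 were called higher and 53 to 109 lower in those fits. CFI was thus the only member called in all 7 fits with a library left out. In bulk RNA, fewer cells that express a gene and less RNA per cell cannot be told apart. Log2 changes are differences of log2(FPKM + 0.1), siIGF2BP1 minus siC, and understate the change of genes with low values.

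**Figure D3:**
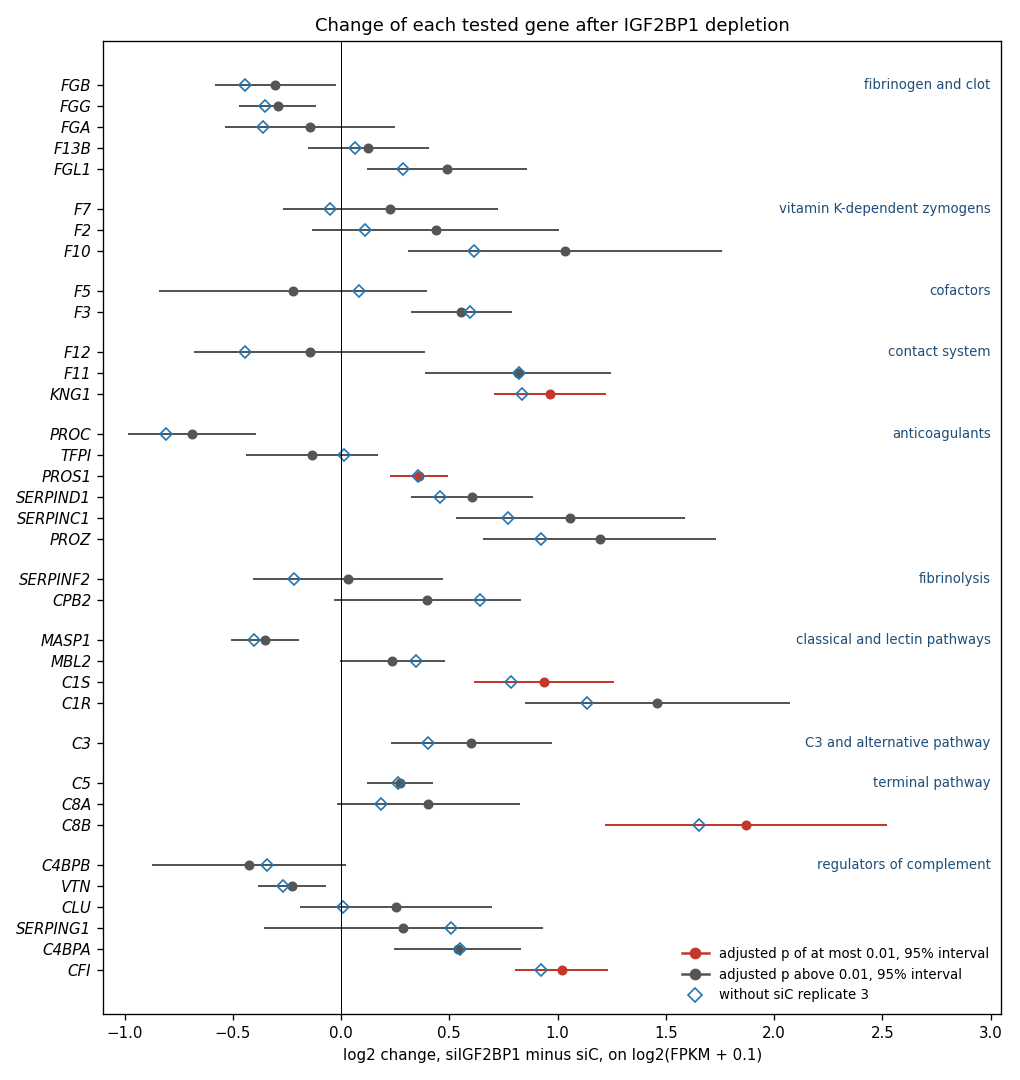
Log2 change, siIGF2BP1 minus siC, of each tested member (circles) with its 95% confidence interval, grouped by role, with the change without siC replicate 3 as open diamonds. The 5 members past the adjusted p of 0.01 all lie above 0, from 0.36 (PROS1) to 1.87 (C8B).

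Promoter sequence was examined for letters that liver-enriched factors and STAT3 are known to bind. RefSeq windows (GRCh38.p14, 250 bases before and 50 after the start) were found for 35 of the 45 members, and both strands were searched. Positions below are those of the 30 bases printed, and the strand is that of the gene, on which the bases are written. Some matches are thus the reverse complement of the motif. Among members that share the STAT3 or the C/EBP letters, some were called (PROS1 and KNG1) and others were not. No member with the HNF1 or the HNF4 letters was called, beside 1.65% higher and 2.28% lower over all genes, and PLG among them was not tested. Without siC replicate 3, FGA, F10 and PROZ passed the threshold, and C4BPA and F13B did not. With so few genes, nothing is concluded about the motifs. The HNF1 motif was in 4 of the 35 members' windows (C4BPA, F13B, FGA and PLG) and in 0.293% of 27305 promoters. Those shown lie at chr1:197067301-197067330 (F13B, minus strand), chr1:207104173-207104202 (C4BPA, plus strand) and chr4:154590779-154590808 (FGA, minus strand), with the motif in capitals. The F13B match overlaps a TATA box match, TATAAA.
F13B: agaggttataAATTATTAACtttttcctca
C4BPA: tatttctgctGTTAATCATTcattgggccc
FGA: ggacaaagccAATGATTAACcaaacctctt
The HNF4 motif CAAAGTCCA was in 2 members' windows, the neighbours F10 and PROZ, and in 0.359% of all promoters. The PROZ match lies within chr13:113158604-113158633, written on the plus strand, where it is the reverse complement of these letters.
PROZ: tcccccagccTGGACTTTGgctgtgtttgt
The STAT3 motif TTCCNGGAA was in 4 windows (CFB, FGA, PROS1 and VTN) and in 1.22% of all promoters. The matches are at chr3:93973954-93973983 (PROS1, minus strand), chr4:154590954-154590983 (FGA, minus strand), chr17:28370397-28370426 (VTN, minus strand) and chr6:31945993-31946022 (CFB, plus strand).
PROS1: tccgaaaagcTTCCTGGAAatgtccttgtt
FGA: agccaccctgTTCCTGGAAtgtgagatctc
VTN: aggcccagtgTTCCAGGAAtgtgacctttg
CFB: cgcttggatgTTCCGGGAAagtgatgtggg
The C/EBP motif TTGCNNAA was in 9 windows, among them those of KNG1, C1R and FGB, and in 10.6% of all promoters. Those of KNG1 and C1R lie at chr3:186717138-186717167 (plus strand) and chr12:7092533-7092562 (minus strand), and that of FGB at chr4:154562868-154562897 (plus strand).
KNG1: caaaaatggctTTGCAAAAgtcacagggga
C1R: agatcttttgtTTATGCAAatagttcattc
FGB: ctgggaagatgTTGCTTAAatgataaaatg
The TATA box letters TATAAA were in 3 windows and in 12% of all promoters, and the GC box letters GGGCGG in 4 windows and in 44.6%. These matches describe letters in the windows only, and members with the same match are followed separately below.

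Among the regulators of complement, CFI rose. CFI (ENSG00000205403, chromosome 4, 109731008 to 109802150, minus strand) encodes complement factor I, the protease that inactivates C3b and C4b. Its level was 24.8, 24.6 and 20.3 FPKM in siC and 48.7, 48.4, 43.6 and 47.7 FPKM in siIGF2BP1. Every siIGF2BP1 library lay above every siC library, and the lowest siIGF2BP1 value was well above the highest siC value. The mean rose from 23.2 ± 2.55 (SD, n = 3) to 47.1 ± 2.37 FPKM (SD, n = 4), to 202% of siC, with a log2 change of 1.02 (SE 0.0893, 95% interval 0.81 to 1.23, limma adjusted p = 0.00117). CFI overlaps another protein-coding gene without a symbol on its own strand in GENCODE 44. Part of its reads may be shared if that gene was also in the annotation used for counting, which was not checked. The counting was not stated to use strand. Without siC replicate 3 the change of CFI was 0.92.

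None of the other 5 regulators passed the threshold over all 7 libraries. C4BPA and C4BPB encode the alpha and beta chains of C4b-binding protein, which helps factor I to inactivate C4b, and they differed. C4BPA was at 2.33, 2.70 and 2.56 FPKM in siC and at 3.68, 4.37, 3.15 and 3.72 FPKM in siIGF2BP1 (log2 change 0.54, adjusted p = 0.0338). C4BPB was at 1.37, 1.58 and 1.76 FPKM against 0.926, 1.11, 1.15 and 1.41 FPKM (log2 change −0.43, adjusted p = 0.21). The groups did not overlap for C4BPA and overlapped for C4BPB. SERPING1, the C1 inhibitor, was at 6.01, 6.42 and 9.88 FPKM against 7.98, 13.8, 6.89 and 8.15 FPKM (log2 change 0.29, adjusted p = 0.575), and its highest siC library was replicate 3 and its highest siIGF2BP1 library was replicate 2. VTN was at 112, 107 and 100 FPKM against 87.7, 89.4, 95 and 91.6 FPKM, without overlap (log2 change −0.23, adjusted p = 0.0703). Without siC replicate 3 the change of VTN was −0.27 and passed the threshold. VTN overlaps SARM1 on the other strand and a gene without a symbol on its own. CLU, a chaperone that binds the membrane attack complex, was at 86.2, 86.1 and 51.7 FPKM against 85.4, 78.6, 91.5 and 91.9 FPKM (log2 change 0.25, 95% interval −0.19 to 0.69, and 0.01 without siC replicate 3).

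In the classical and lectin pathways, C1S rose and the level of C1R was higher without passing the threshold. C1S (ENSG00000182326, chromosome 12, 6988259 to 7071032, plus strand) encodes the protease of the C1 complex that cuts C4 and C2. It was at 5.42, 4.59 and 3.61 FPKM in siC and at 9.39, 8.24, 8.24 and 8.88 FPKM in siIGF2BP1. The groups did not overlap, and siC replicate 3 was the lowest library. The mean rose from 4.54 ± 0.908 to 8.69 ± 0.553 FPKM (SD, n = 3 and 4), to 191% of siC (log2 change 0.94, SE 0.136, 95% interval 0.62 to 1.26, limma adjusted p = 0.00696). C1S stayed past the threshold when siC replicate 1 or siC replicate 3 was left out and missed it when any of the other 5 libraries was, and with no filter on low values. It overlaps LPCAT3 on the other strand and a gene without a symbol on its own.

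C1R, the protease that activates C1s, was at 1.32, 1.35 and 0.628 FPKM in siC and at 2.93, 2.73, 3.11 and 3.49 FPKM in siIGF2BP1, 279% of siC, without overlap. Its log2 change of 1.46 (SE 0.258) had an adjusted p of 0.0142, above the threshold, and its counts per library ran from 49 to 301 reads. Without siC replicate 3 the change was 1.13 and passed the threshold. C1R overlaps C1RL on the same strand, so these values are uncertain to that extent. MASP1, a protease of the lectin pathway, was at 12.8, 12.8 and 11.5 FPKM in siC and at 10.1, 9.42, 9.42 and 9.79 FPKM in siIGF2BP1, without overlap and lower (log2 change −0.35, adjusted p = 0.0167), and without siC replicate 3 the change was −0.40 and passed the threshold. MBL2, the mannose-binding lectin, was at 5.78, 5.72 and 7.23 FPKM against 7.22, 7.86, 6.83 and 7.45 FPKM (log2 change 0.24, adjusted p = 0.195). C2, C4A, C4B and MASP2 lay under the filter, each at or below 0.7 FPKM in every library. C4A and C4B are near-identical copies, and their summed counts, 25, 25 and 9 reads in siC and 36, 48, 31 and 28 in siIGF2BP1, show how few reads carry them. As FPKM, the sums were 0.160, 0.109 and 0.0918 in siC and 0.278, 0.358, 0.327 and 0.301 in siIGF2BP1.

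C3, the central component of all 3 complement pathways, was at 16.6, 15.9 and 10.6 FPKM in siC and at 21.5, 19.8, 22.4 and 22.3 FPKM in siIGF2BP1. The groups did not overlap (log2 change 0.60, SE 0.155, adjusted p = 0.051), and without siC replicate 3 the change was 0.40 and passed the threshold. C3 overlaps GPR108 on its own strand. CFB, factor B of the alternative pathway, lay between 0.0883 and 0.231 FPKM and was not tested.

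Among genes of the terminal pathway, C8B rose and C5 did not pass the threshold. C8B (ENSG00000021852, chromosome 1, 56929207 to 56974383, minus strand) encodes the beta chain of C8, a part of the membrane attack complex. It was at 0.453, 0.412 and 0.240 FPKM in siC and at 1.86, 1.64, 1.55 and 1.30 FPKM in siIGF2BP1, without overlap. The mean rose from 0.368 ± 0.113 to 1.59 ± 0.233 FPKM (SD, n = 3 and 4), to 431% of siC (log2 change 1.87, SE 0.274, 95% interval 1.23 to 2.51, limma adjusted p = 0.00717). The lowest library held 9 reads and the highest 92, the call held in 1 of the 7 fits with a library left out, the one without siC replicate 3, and C8B passed the filter only through siIGF2BP1. With quantile normalization it missed the threshold.

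C8A, the alpha chain, was at 3.54, 3.94 and 2.34 FPKM against 4.45, 4.03, 4.71 and 3.89 FPKM (log2 change 0.40, 95% interval −0.02 to 0.82, adjusted p = 0.209). C5, which yields the C5a peptide and C5b, was at 45.4, 46.4 and 44.9 FPKM against 57.5, 57.3, 51.0 and 54.5 FPKM. The groups did not overlap, but the log2 change of 0.27 (SE 0.0632) had an adjusted p of 0.0364. C5 overlaps CNTRL on the other strand. C8G and C6 were under the filter, at or below 0.451 FPKM, with groups that overlapped.

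In the contact system of coagulation, KNG1 rose. KNG1 (ENSG00000113889, chromosome 3, 186717348 to 186744410, plus strand) encodes kininogen, the cofactor of the contact system and source of bradykinin. It was at 11.1, 11.4 and 8.55 FPKM in siC and at 20.8, 20.9, 19.7 and 19.1 FPKM in siIGF2BP1. No siIGF2BP1 library was as low as any siC library. The mean rose from 10.3 ± 1.55 to 20.1 ± 0.894 FPKM (SD, n = 3 and 4), to 195% of siC (log2 change 0.96, SE 0.108, 95% interval 0.71 to 1.22, limma adjusted p = 0.00274). Its call held in 1 of the 7 fits with a library left out, the one without siC replicate 3. Its promoter match is among those shown above.

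The other contact genes were not called. F12, the zymogen that starts the contact pathway, was at 6.62, 6.98 and 3.59 FPKM against 5.00, 4.47, 5.29 and 5.15 FPKM (log2 change −0.14, 95% interval −0.67 to 0.38, adjusted p = 0.747, and −0.44 without siC replicate 3), and overlaps GRK6 on the other strand. F11, factor XI, was at 0.667, 0.826 and 0.756 FPKM against 1.53, 1.28, 1.30 and 1.47 FPKM, without overlap (log2 change 0.82, adjusted p = 0.0314), and passed the filter only through siIGF2BP1. KLKB1, plasma prekallikrein, lay under the filter at 0.310, 0.307 and 0.246 FPKM in siC and 0.374, 0.704, 0.588 and 0.444 FPKM in siIGF2BP1.

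PROS1 was the only called anticoagulant. PROS1 (ENSG00000184500, chromosome 3, 93873051 to 93980003, minus strand) encodes protein S, the cofactor of activated protein C. It was at 69.8, 71.5 and 69.6 FPKM in siC and at 92.9, 92.2, 87.0 and 89.3 FPKM in siIGF2BP1. The siC libraries lay close together and all siIGF2BP1 libraries above them. The mean rose from 70.3 ± 1.07 to 90.4 ± 2.72 FPKM (SD, n = 3 and 4), to 129% of siC (log2 change 0.36, SE 0.0548, 95% interval 0.23 to 0.49, limma adjusted p = 0.00836). The call was lost with no filter on low values and after removal of a GC trend, and it held in 1 of the 7 fits with a library left out, the one without siC replicate 3. The library counts, 4241 to 10149 reads, leave little counting error.

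PROC, protein C itself, was at 13.8, 13.4 and 10.6 FPKM in siC and at 8.25, 6.69, 8.47 and 7.60 FPKM in siIGF2BP1, without overlap and lower. The siIGF2BP1 mean was 61.5% of siC (log2 change −0.69, SE 0.123, adjusted p = 0.0147), the lowest log2 change among the tested members, and without siC replicate 3 it was −0.81 and past the threshold. SERPINC1, antithrombin, was at 6.84, 5.47 and 3.33 FPKM against 11, 10.2, 9.73 and 11.2 FPKM (202% of siC, log2 change 1.06, adjusted p = 0.026). SERPIND1, heparin cofactor II, was at 56.9, 56.6 and 41.7 FPKM against 77.7, 74.3, 78.0 and 82.0 FPKM (151% of siC, log2 change 0.60, adjusted p = 0.02). For both genes the groups did not overlap and the change passed the threshold without siC replicate 3. SERPIND1 overlaps PI4KA on the other strand. PROZ, protein Z, was at 2.25, 3 and 1.44 FPKM against 4.87, 4.45, 5.35 and 5.50 FPKM (226% of siC, log2 change 1.19, adjusted p = 0.018), and without siC replicate 3 the change was 0.92 and passed the threshold. TFPI, the inhibitor of tissue factor with factor VII, was at 11.6, 12.4 and 16.4 FPKM against 11.8, 13.2, 11.2 and 12.3 FPKM, with groups that overlapped (log2 change −0.14, 95% interval −0.44 to 0.17).

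None of the zymogens or cofactors was called. F10, factor X, was at 14, 13.1 and 5.58 FPKM in siC and at 19.7, 19.6, 20.7 and 23.3 FPKM in siIGF2BP1 (log2 change 1.03, SE 0.306, adjusted p = 0.0768), and without siC replicate 3 the change was 0.61 and passed the threshold. F2, prothrombin, was at 81.4, 76.2 and 39.7 FPKM against 86.1, 78.2, 83.9 and 91.9 FPKM (log2 change 0.44, and 0.11 without siC replicate 3). The size of its change therefore depended on siC replicate 3. F7, factor VII, was at 7.06, 6.97 and 3.87 FPKM against 7.14, 6.22, 6.88 and 6.82 FPKM (log2 change 0.23, 95% interval −0.26 to 0.72). F3, tissue factor, was at 3.52, 4.52 and 4.32 FPKM against 6.03, 5.84, 6.09 and 6.32 FPKM, without overlap (log2 change 0.56, adjusted p = 0.0135), and without siC replicate 3 the change was 0.59 and passed the threshold. F5, the cofactor of factor Xa, was at 8.88, 9.63 and 17.4 FPKM against 9.03, 13.1, 8.35 and 9.25 FPKM (log2 change −0.22). Its highest libraries were siC replicate 3 and siIGF2BP1 replicate 2. F9, factor IX, had 0 reads in every library, which allows a level of up to 0.0337 to 0.0831 FPKM by library (3 reads). Such limits cover counting error only.

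The 3 fibrinogen chains had log2 changes below 0, and none was called. FGA, FGB and FGG lie within 50000 bases of each other on chromosome 4 and encode the chains that thrombin turns into fibrin. FGB was at 361, 366 and 271 FPKM in siC and at 268, 268, 260 and 272 FPKM in siIGF2BP1 (80.3% of siC, log2 change −0.30, adjusted p = 0.153). FGA was at 265, 276 and 172 FPKM against 213, 213, 205 and 211 FPKM (log2 change −0.14, adjusted p = 0.65), and siC replicate 3 lay below every siIGF2BP1 library. FGG was at 178, 183 and 159 FPKM against 145, 142, 134 and 145 FPKM, without overlap (log2 change −0.29, adjusted p = 0.0469). Without siC replicate 3, all 3 chains were past the threshold, at −0.44, −0.36 and −0.35 for FGB, FGA and FGG. Their share of the summed FPKM of the 45 members was 51.5%, 52.4% and 49.6% in siC and 41.8%, 42.0%, 41.2% and 41.4% in siIGF2BP1, without overlap and with siC replicate 3 close to the other siC libraries. The remaining 42 members summed to 758, 751 and 612 FPKM in siC and to 873, 861, 854 and 889 FPKM in siIGF2BP1.

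**Figure D4:**
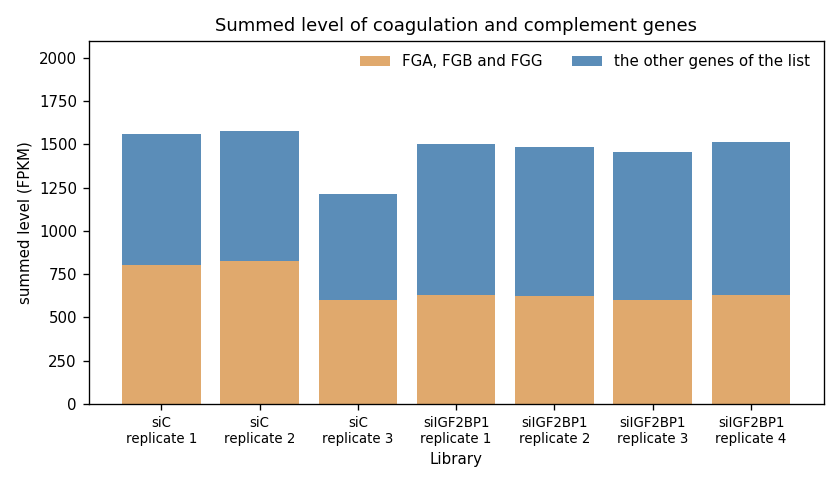
Stacked bars of summed FPKM in each library, the 3 fibrinogen chains below and the other 42 members above. The other members lie from 612 to 758 FPKM in siC and from 854 to 889 FPKM in siIGF2BP1.

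Of the other clot genes, FGL1, a fibrinogen-like secreted protein, was at 50.5, 52.0 and 33.4 FPKM against 62.9, 66.0, 59.0 and 62.2 FPKM, without overlap (log2 change 0.49, adjusted p = 0.0948). F13B, the carrier subunit of factor XIII, was at 3.03, 2.78 and 2.55 FPKM against 2.61, 3.35, 2.96 and 3.30 FPKM (log2 change 0.13, adjusted p = 0.567). Fibrinolysis showed no call. CPB2, which protects fibrin from plasmin, was at 28.3, 29.2 and 47.7 FPKM against 45.8, 47.5, 41.8 and 44.5 FPKM (log2 change 0.40, adjusted p = 0.222), with siC replicate 3 above every other library. Without that library its change was 0.64 and passed the threshold. SERPINF2, the plasmin inhibitor, was at 55.7, 53.9 and 32.6 FPKM against 48.2, 44.3, 47.4 and 48.8 FPKM (log2 change 0.03, and −0.22 without siC replicate 3). PLG, plasminogen, lay between 0.0483 and 0.137 FPKM and was not tested. In all, 9 of the 10 untested members were above 0, with means from 0.0785 to 0.6 FPKM. The groups did not overlap for 5 of them (C2, C4A, C4B, MASP2 and KLKB1), all higher in siIGF2BP1, and 0 were lower without overlap. The share among all untested genes was not computed, so this count has no background to be read against.

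Several members lie beside one another in the genome, and the ratio of neighbours within a library cancels whatever scales both alike. Pairs within 50000 bases were compared after the values were known, and 9 pairs had both genes tested. C8A and C8B are neighbours on chromosome 1, a pair that entered only because C8B passed the filter through siIGF2BP1, and their ratio was 7.81, 9.56 and 9.78 in siC and 2.39, 2.45, 3.04 and 3 in siIGF2BP1. The ratio of C4BPB to C4BPA was 0.587, 0.586 and 0.688 against 0.251, 0.254, 0.364 and 0.379. On chromosome 13, the ratio of F7 to F10 was 0.504, 0.532 and 0.693 against 0.362, 0.318, 0.333 and 0.292. In each of these pairs the ratios did not overlap between groups and were lower in siIGF2BP1. The same absence of overlap was seen for C1S to C1R, F7 to PROZ and FGB to FGA, and not for F10 to PROZ, FGA to FGG and FGB to FGG. Several of these pairs share a gene and are not independent. How often neighbouring pairs over all genes separate was not computed, so the count has no background to be read against. The exact permutation test used over the 7 libraries, which doubles the smaller tail for a two-sided p, cannot give a p below 0.0571. The 6 separated pairs reached that value (0.0857 after adjustment over the 9 pairs). The 6 include C8A to C8B, and the pairs were chosen after the values were known, so no conclusion is drawn from these p-values.

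**Figure D5:**
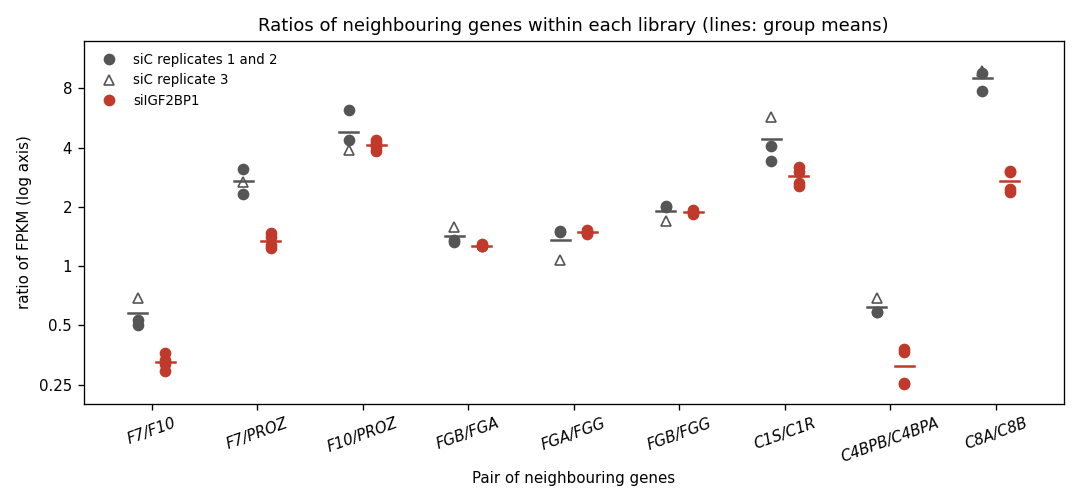
Ratio of FPKM (log axis) of 9 pairs of neighbouring members in each library, by group, with group means as lines. The C8A to C8B ratio lies from 7.81 to 9.78 in siC and from 2.39 to 3.04 in siIGF2BP1, and the ratios of FGB to FGG and of F10 to PROZ overlap between groups.

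Genes of the 2 systems that are not members were counted from a list of 47. Of these, 19 were tested, 2 rose and 1 fell (beside 1.65% and 2.28% of all genes), 28 were under the filter and 8 had 0 reads in every library. HABP2, a protease that can activate factor VII, rose from 10.1 ± 1.21 to 23.4 ± 1.35 FPKM (SD, n = 3 and 4, log2 change 1.21, limma adjusted p = 0.000834). F2R, the thrombin receptor PAR1, fell from 6.31 ± 0.061 to 3.50 ± 0.227 FPKM (log2 change −0.83, limma adjusted p = 0.00117), and missed the threshold when siC replicate 2 was left out. Of 12 transcription factors known to act on liver genes, STAT3 rose from 10.1 ± 0.430 to 14.5 ± 0.345 FPKM (log2 change 0.52, limma adjusted p = 0.00263). None of the 12 fell by limma, and at an unadjusted p under 0.05 the list counted 2 higher and 0 lower, beside 11% and 14.8% of all genes. The STAT3 call held in 1 of the 7 fits with a library left out, the one without siC replicate 3.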

How the data were processed

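Per the labels and the methods, libraries were directional and made after rRNA depletion. The authors trimmed with Cutadapt 1.14, mapped to GRCh38 using HISAT2 2.1.0, handled alignments in SAMtools 1.5 and counted per gene with featureCounts 1.5.3 on Ensembl release 89. Whether strand was used in counting is not given in the sources used here. The authors scaled by TMM and tested in edgeR 3.18.1. The deposited table gives FPKM per gene and library, and its log2 fold change, p-value and FDR columns were not used. In 100% of values, FPKM times gene length was a whole multiple of the worth of 1 read, which gave reads and depth.

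The 14839 genes whose mean reached 1 FPKM were tested with limma 3.58.1 in R 4.3.3 on log2(FPKM + 0.1), with a mean-variance trend, two-sided, with Benjamini-Hochberg adjustment at 0.01, the study's FDR threshold. The script was tested on simulated data. Groups came from sample titles. By the naming rule all members are accounted for, with full statistics for those past the threshold. Members and lists were chosen with earlier results of these data known. Of the other genes of the systems that rose, 1 is not reported here. Positions are from GENCODE 44 (GRCh38). Alternatives were other pseudocounts, filters, scalings, voom on recovered reads, array weights, a replicate block, a threshold of 0.05 and single libraries left out, and removal of a GC trend was added after seeing the data.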

Additional observations from a re-analysis of the deposited data

How the results depend on the processing

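Limits: the siC group holds 3 libraries, 1 of which stood apart, and calls near the threshold depended on it. The 5 members called higher became 3 with no filter, 8 with voom, 18 with array weights, 9 after removal of a GC trend (chosen after seeing the data) and 13 at a threshold of 0.05. Leaving out single libraries gave 1 to 13. The 0 members called lower became 1 with voom, 7 with array weights, 2 after removal of the GC trend and 3 at 0.05, and 0 to 6 with single libraries left out. Over all genes, 245 of 14839 were called higher and 338 lower, and array weights called 1022 and 1722. The all-gene calls were 146 and 206 of 34319 with no filter, and 353 and 489 with voom. They were 471 and 527 of 14711 after removal of the GC trend, and 703 and 1010 at 0.05. Leaving out single libraries gave 66 to 533 higher and 53 to 990 lower over all genes. The members' counts are to be read beside these. Why array weights gave more calls was not tested.

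The labels do not say whether the replicate numbers pair the samples. Correlations of deviations between same-numbered libraries were −0.03, −0.12 and −0.11, which gave no sign of pairing but cannot settle it. With the replicate block, 0 genes were called, IGF2BP1 included (log2 change −2.36, adjusted p = 0.0909), though 2389 genes had an unadjusted p under 0.05, and the members higher and lower were 0 and 0. Over its alternatives the adjusted p of IGF2BP1 ran from 3.75e-07 to 0.0909. The fit with the block has fewer residual degrees of freedom.

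In the list of other coagulation and complement genes, 2 higher became 1 at a mean of at least 5 FPKM, 0 with the block and 3 with array weights and at 0.05. The 1 lower became 0 at that mean and with the block, 2 with quantile normalization, after removal of the GC trend and at 0.05, 3 with array weights, and 0 to 2 with single libraries left out. Of the liver transcription factors, 1 higher became 2 with array weights, after GC trend removal and at 0.05, 0 with the block and 0 to 1 with single libraries left out, and 0 lower became 1 with array weights and 0 to 1 with single libraries left out.

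The direction of 30 of the 35 tested members held in all alternatives. With single libraries left out, log2 changes ranged from −0.44 to 0.024 for F12, from −0.40 to 0.081 for F5, from −0.053 to 0.37 for F7, from −0.22 to 0.17 for SERPINF2 and from −0.24 to 0.014 for TFPI. Array weights gave −0.0061 for F7 and −0.18 for SERPINF2. The reversal of F12 came without siC replicate 2 and those of the other 4 without siC replicate 3.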
